A study of Mus musculus with 2 samples.

Results

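Myc and 35 genes around it were followed here: its partner Max, the Max-binding repressor Mxi1, and 33 genes whose products build ribosomes in the nucleolus. They were chosen by name from this pathway, and all 36 are among the 15121 genes of the deposited matrix. The samples are T cells of a mouse melanoma model that grows from an Nras-mutated melanoma line, called NILER in the labels, taken on day 5. One library came from untreated mice, the other from mice given trametinib and BGB-283 together (the combination library). Trametinib inhibits the kinase MEK, and BGB-283 is a RAF inhibitor, so both act on the RAF, MEK and ERK cascade. The labels give the melanoma line as the tissue and T cells as the cell type, and say nothing of the number of mice, their age or sex, or how the cells were sorted.

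Myc is a transcription factor that pairs with Max and binds promoters, many of them of genes for growth and ribosome production. Mxi1 and its relatives pair with Max instead and repress. Naive T cells make comparatively few ribosomes, and on activation Myc and the nucleolar machinery are switched on together. That machinery transcribes the ribosomal RNA precursor with RNA polymerase I. It then modifies and cuts the precursor with small nucleolar ribonucleoproteins (snoRNPs) and assembles the small and large subunits.

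Each group is 1 library, so no test between groups was possible, and treatment cannot be told apart from any other difference between the libraries. UMIs (counted molecules) were recovered from the deposited values, summed over the cells of a gate and given as CPM, the standard scale that divides by all UMIs of that gate and library. Intervals are 95% intervals that cover counting error only, exact Poisson for a level and exact conditional binomial for a ratio. A gene counts as lower or higher when its level differs at least 1.5-fold, and it enters that count only where the mean CPM of the 2 libraries is at least 5. Levels are compared between libraries, not between genes.

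The untreated library held 9312 cells and 95349992 UMIs, and the combination library 8078 cells and 58318786 UMIs. UMIs of the T cell genes Cd3e, Cd3d, Cd3g and Trac, at least 1 among the 4, were present in 92.2% and 92.3% of them. Droplets with transcripts of 2 or more marker genes of macrophages, dendritic cells, B cells, neutrophils or stromal and tumour cells were left out, 2553 and 1365 of them. The 2 libraries share 35 cell barcodes. Every gated cell needed a UMI of one of those 4 T cell genes, and 5 gates were set by UMIs. CD8 cells had Cd8a or Cd8b1 and neither Cd4 nor Foxp3, and CD4 cells had Cd4 and neither CD8 genes nor Foxp3. Foxp3>0 cells (regulatory T cells) had a Foxp3 UMI and no CD8 gene. CD8 and CD4 cells were called naive-state with UMIs of at least 2 of 4 naive T cell marker genes, such as Ccr7 and Tcf7, and none of Pdcd1 (the gene of PD-1), or Pdcd1>0 with at least 1 UMI of it. Any change in these genes between the libraries moves cells into or out of a gate, and this was not separated from change within the cells.

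The gates held 2500 untreated and 649 combination naive-state CD8 cells, 897 and 2907 Pdcd1>0 CD8 cells, 483 and 171 naive-state CD4 cells, 185 and 112 Pdcd1>0 CD4 cells, and 425 and 403 Foxp3>0 cells. Median depth per cell was close between the libraries in naive-state CD8 cells, at 5848 and 5695 UMIs. It differed in Pdcd1>0 CD8 cells, at 10987 and 6879. In the same gate, cells with UMIs of at least 2 of 10 mitotic genes (cycling cells below) made up 43.8% of untreated and 11.8% of combination cells.

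Myc was lower in the combination library in both CD8 gates. In naive-state CD8 cells it was at 47.3 CPM untreated (749 UMIs) and 20.8 CPM under the combination (80 UMIs), 2.27-fold lower (interval 1.80 to 2.90). The Pdcd1>0 CD8 cells had 19.2 and 3.87 CPM (228 and 87 UMIs), 4.95-fold lower (interval 3.85 to 6.41). The intervals of the 2 libraries lie far apart in both gates, and the untreated Pdcd1>0 cells stood below the untreated naive-state cells. Among naive-state CD8 cells without a UMI of Cd44, an activation marker, Myc was at 46.5 and 22.9 CPM, 2.03-fold lower (interval 1.56 to 2.67). This stricter choice of cells was made after the data were seen. Within Pdcd1>0 CD8 cells the ratio was 5.21-fold lower (interval 3.15 to 9.18) in cycling and 4.31-fold lower (interval 3.07 to 6.06) in non-cycling cells.

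In the CD4 and Foxp3>0 gates the Myc ratio was within counting error of 1. Naive-state CD4 cells had 23.7 and 13.9 CPM from 51 and 11 UMIs, and the ratio's interval covered 1 (0.878 to 3.63-fold lower). Foxp3>0 cells had 12.5 and 9.40 CPM, again with an interval across 1 (0.784 to 2.29-fold lower), and its upper end lies under the 3.85-fold at the near end for Pdcd1>0 CD8 cells. Pdcd1>0 CD4 cells had 3 and 7 UMIs, too few to read a direction, and the sign turned when the droplets with other cell types' transcripts were kept. Whether the Myc ratio differs between gates was not tested.

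**Figure D1:**
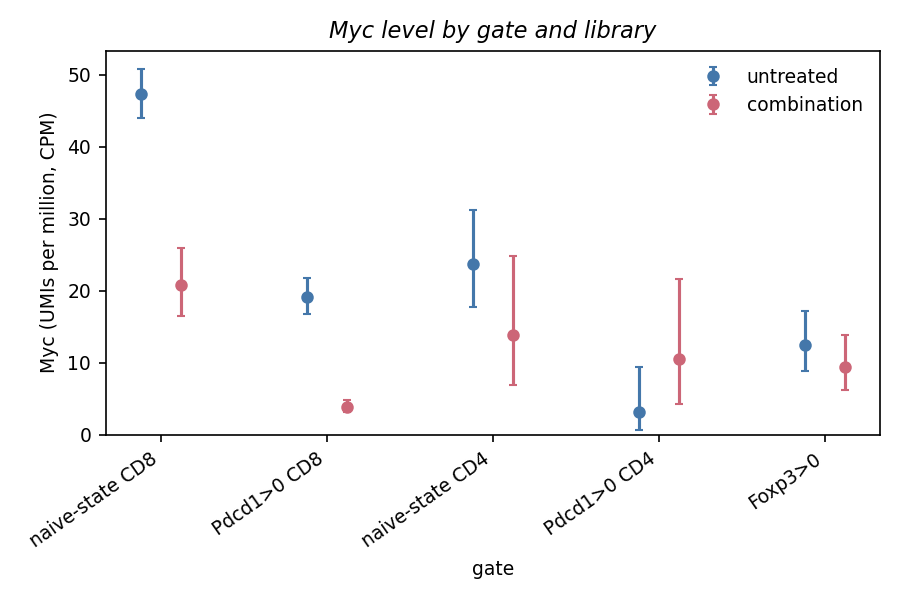
Myc level (CPM, vertical axis) in 5 gates (horizontal axis) in the untreated (blue) and combination (red) library; points are levels of 1 library and bars are exact Poisson 95% intervals, which cover counting error only. The combination point sits below the untreated one in both CD8 gates with separate bars (47.3 and 20.8 CPM, and 19.2 and 3.87 CPM), while the bars overlap in the other 3 gates.

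Max, the partner that Myc and Mxi1 share, had ratios nearer 1. It was at 74.1 and 104 CPM in naive-state CD8 cells, 1.40-fold higher (interval 1.25 to 1.57), and at 78.9 and 75.7 CPM in Pdcd1>0 CD8 cells, an interval that covered 1. Mxi1 was higher in all 5 gates with intervals clear of 1. It was at 9.73 and 44.0 CPM in naive-state CD8 cells, 4.52-fold higher (interval 3.61 to 5.66). The Pdcd1>0 CD8 cells had 96.6 and 237 CPM, 2.45-fold higher (interval 2.30 to 2.61). Foxp3>0 cells had 123 and 243 CPM, 1.98-fold higher (interval 1.74 to 2.25). Mxi1 has a long transcript (5036 bases), and against genes of like length, described further on, its log2 ratios were smaller. They were 1.76 in place of 2.18 in naive-state CD8 cells, and 0.82 in place of 1.29 in Pdcd1>0 CD8 cells.

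Of 8 further network genes, the Max-binding repressors Mxd1, Mxd4, Mnt and Mga were on the higher side in both CD8 gates, like Mxi1. Mxd1 was at 52.1 and 155 CPM in naive-state CD8 cells and at 47.5 and 141 CPM in Pdcd1>0 CD8 cells. Mxd4 was at 57.9 and 183 CPM, and 59.8 and 310.2 CPM, which is 5.19-fold higher (interval 4.80 to 5.61) in the second gate. Mga was 1.79-fold and 2.08-fold higher in these gates, and Mnt 1.498-fold and 2.70-fold. Mlx, which pairs with some of these repressors but not with Max, was lower, at 28.3 and 10.9 CPM in naive-state and 31.0 and 22.1 CPM in Pdcd1>0 CD8 cells. Mxd3 was also lower in Pdcd1>0 CD8 cells, at 9.24 and 2.85 CPM, and under the minimum in naive-state cells. Within cycling Pdcd1>0 CD8 cells it was at 14.7 and 13.8 CPM, with an interval across 1, and in non-cycling cells it was under the minimum. Mycl was at 7.39 and 4.09 CPM in Pdcd1>0 CD8 cells, and Mycn had at most 2 UMIs in any gate of a library.

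The members as a whole did not stand below the background in naive-state CD8 cells, where Myc was lower. There 7 of 36 members were lower and 7 higher, against 22.6% and 27.6% of the 8165 genes tested, and the members' median log2 ratio was -0.01 against 0.03 for all genes. In Pdcd1>0 CD8 cells 16 of 35 were lower and 3 higher, against 20.5% and 28.8% of 8551 genes, with medians of -0.44 and 0.08. Utp14b was under the minimum there. The count of 16 moved by over 1.5 times under 4 alternatives: it was 10 without the 5% deepest cells, 9 with each cell thinned to 2000 UMIs, and 8 without cycling cells or with the mean of each cell's CPM. Summed over the 33 ribosome biogenesis members, the level was 3890 and 4005 CPM in naive-state CD8 cells, and 3913 and 2981 CPM in Pdcd1>0 CD8 cells. Most of each sum over these 33, here and below, came from Npm1 and Ncl. In naive-state CD8 cells with a Myc UMI, the sum without Npm1 and Ncl was 2047 CPM untreated and 2001 CPM under the combination. In those without a Myc UMI it was 1750 and 1727 CPM. The full sums of the same cells were 4255 and 4279 CPM, and 3768 and 3972 CPM.

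In naive-state CD4 cells 8 of 34 members were lower and 10 higher (background 23.5% and 29.8%). In Pdcd1>0 CD4 cells 4 of 32 were lower and 7 higher (18.2% and 24%), and in Foxp3>0 cells 0 of 34 were lower and 6 higher (13.6% and 18.8%). In these 3 gates the members' medians were 0.01, 0.06 and 0.04, against 0.07, 0.06 and 0.005 for all genes. By its median the list stood near all genes, while its count of lower members in Foxp3>0 cells was below the background share. With the droplets of other cell types' transcripts kept, the medians of the 2 CD4 gates were -0.31 and -0.27. Rrp12 was under the minimum in these 3 gates, Polr1b in naive-state CD4 cells, Utp14b in both Pdcd1>0 CD4 and Foxp3>0 cells, and Wdr75 and Utp20 in Pdcd1>0 CD4 cells. The members did not all lie on the same side: 8 were on the lower side in all 5 gates (Nop10, Dkc1, Gar1, Rrp9, Rrp1b, Pes1, Wdr43 and Tcof1). On the higher side in all 5 were 8 others (Mxi1, Nop56, Nop14, Utp14b, Bysl, Gnl3, Polr1a and Ddx21). Neither count uses the minimum level, which Utp14b also missed in Pdcd1>0 CD8 cells, or a minimum size. Nop56 was at a log2 ratio of 0.04 in Pdcd1>0 CD8 cells. All gates come from the same pair of libraries, and the share of all genes with a single direction throughout was not counted. These directions come from the UMI sums scaled to all genes of a gate, and several with ratios near 1 turned under other scalings. Leaving ribosomal protein and mitochondrial genes out of the total lowers every log2 ratio of naive-state CD4 cells by the same amount, 0.16.

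**Figure D2:**
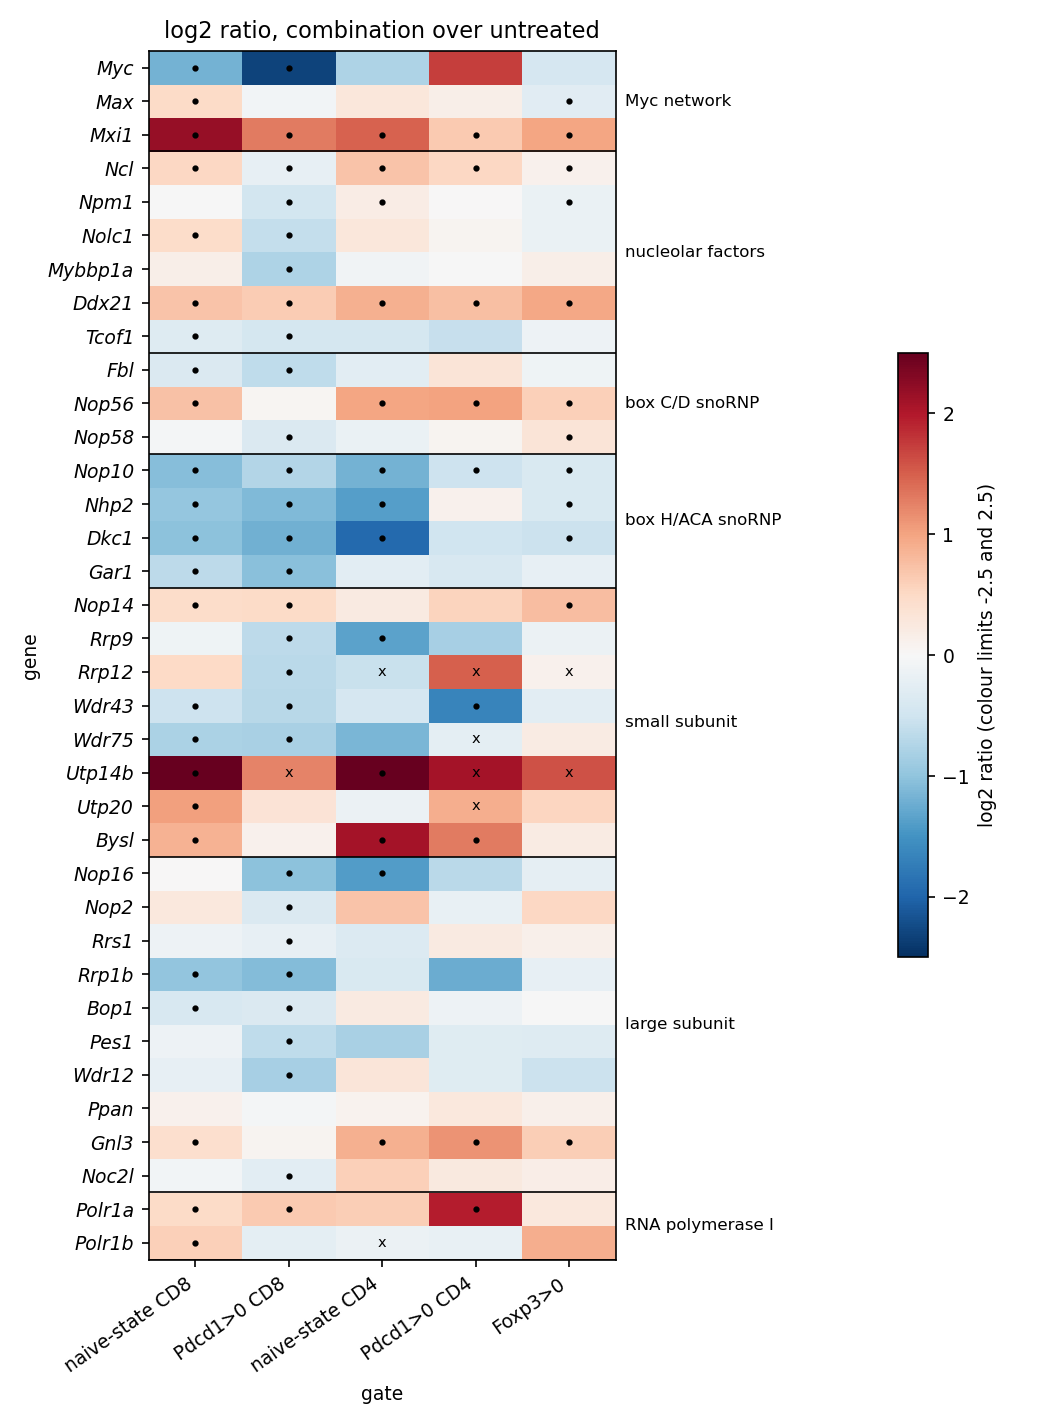
Log2 ratio of the combination over the untreated level (colour, blue lower and red higher, limited to -2.5 and 2.5) for the 36 genes (vertical axis, grouped by role) in 5 gates (horizontal axis). A dot marks a ratio whose 95% counting interval excludes 1, and a cross marks a gene with a mean under 5 CPM; the 4 box H/ACA genes are blue with dots in both CD8 gates, and Mxi1 and Ddx21 are red with dots in all 5 gates.

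The most uniform group in the CD8 gates was the box H/ACA snoRNP. This particle turns chosen uridines of ribosomal RNA into pseudouridine and also stabilises telomerase RNA. It has 4 proteins: Dkc1 (dyskerin, the enzyme), Nhp2, Gar1 and Nop10. Their summed level was 516 and 261 CPM in naive-state CD8 cells, and 511 and 265 CPM in Pdcd1>0 CD8 cells. All 4 were lower in both CD8 gates.

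Dkc1 was at 74.6 and 36.4 CPM in naive-state CD8 cells, 2.05-fold lower (interval 1.72 to 2.46), and at 70.3 and 30.7 CPM in Pdcd1>0 CD8 cells, 2.29-fold lower (interval 2.07 to 2.53). Nhp2 was at 111 and 57.0 CPM, 1.95-fold lower (interval 1.69 to 2.25), and at 168 and 77.6 CPM, 2.16-fold lower (interval 2.03 to 2.31). Nop10, the smallest of them, was at 269.5 and 129 CPM, 2.10-fold lower (interval 1.91 to 2.31), and at 202 and 122 CPM, 1.65-fold lower (interval 1.56 to 1.75). Gar1 was at 61.2 and 38.8 CPM, 1.58-fold lower (interval 1.33 to 1.89), and at 70.5 and 34.3 CPM, 2.05-fold lower (interval 1.86 to 2.27). In each of these 8 comparisons the intervals of the 2 levels did not overlap. Under 10 other choices of cells and scaling the log2 ratios of the 4 genes stayed below 0 in both gates, the nearest to 0 being -0.14 for Gar1 in naive-state CD8 cells against genes of like transcript length.

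In naive-state CD4 cells 3 of the 4 passed 1.5-fold: Dkc1 at 58.2 and 15.2 CPM, Nhp2 at 68.9 and 26.6 CPM, and Nop10 at 239 and 105 CPM, while Gar1 was at 47.0 and 39.2 CPM. In Pdcd1>0 CD4 and Foxp3>0 cells none of the 4 passed 1.5-fold, and Nhp2 was on the higher side in the former (log2 ratio 0.11). The summed level of the 4 in these 2 gates was 273 and 209 CPM, and 317 and 244 CPM. In Foxp3>0 cells Dkc1 was at 44.9 and 31.1 CPM, 1.44-fold lower (interval 1.09 to 1.92). The untreated levels of all 4 were also lower in these 2 gates than in untreated CD8 cells. Whether the ratios differ between gates was not tested.

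**Figure D3:**
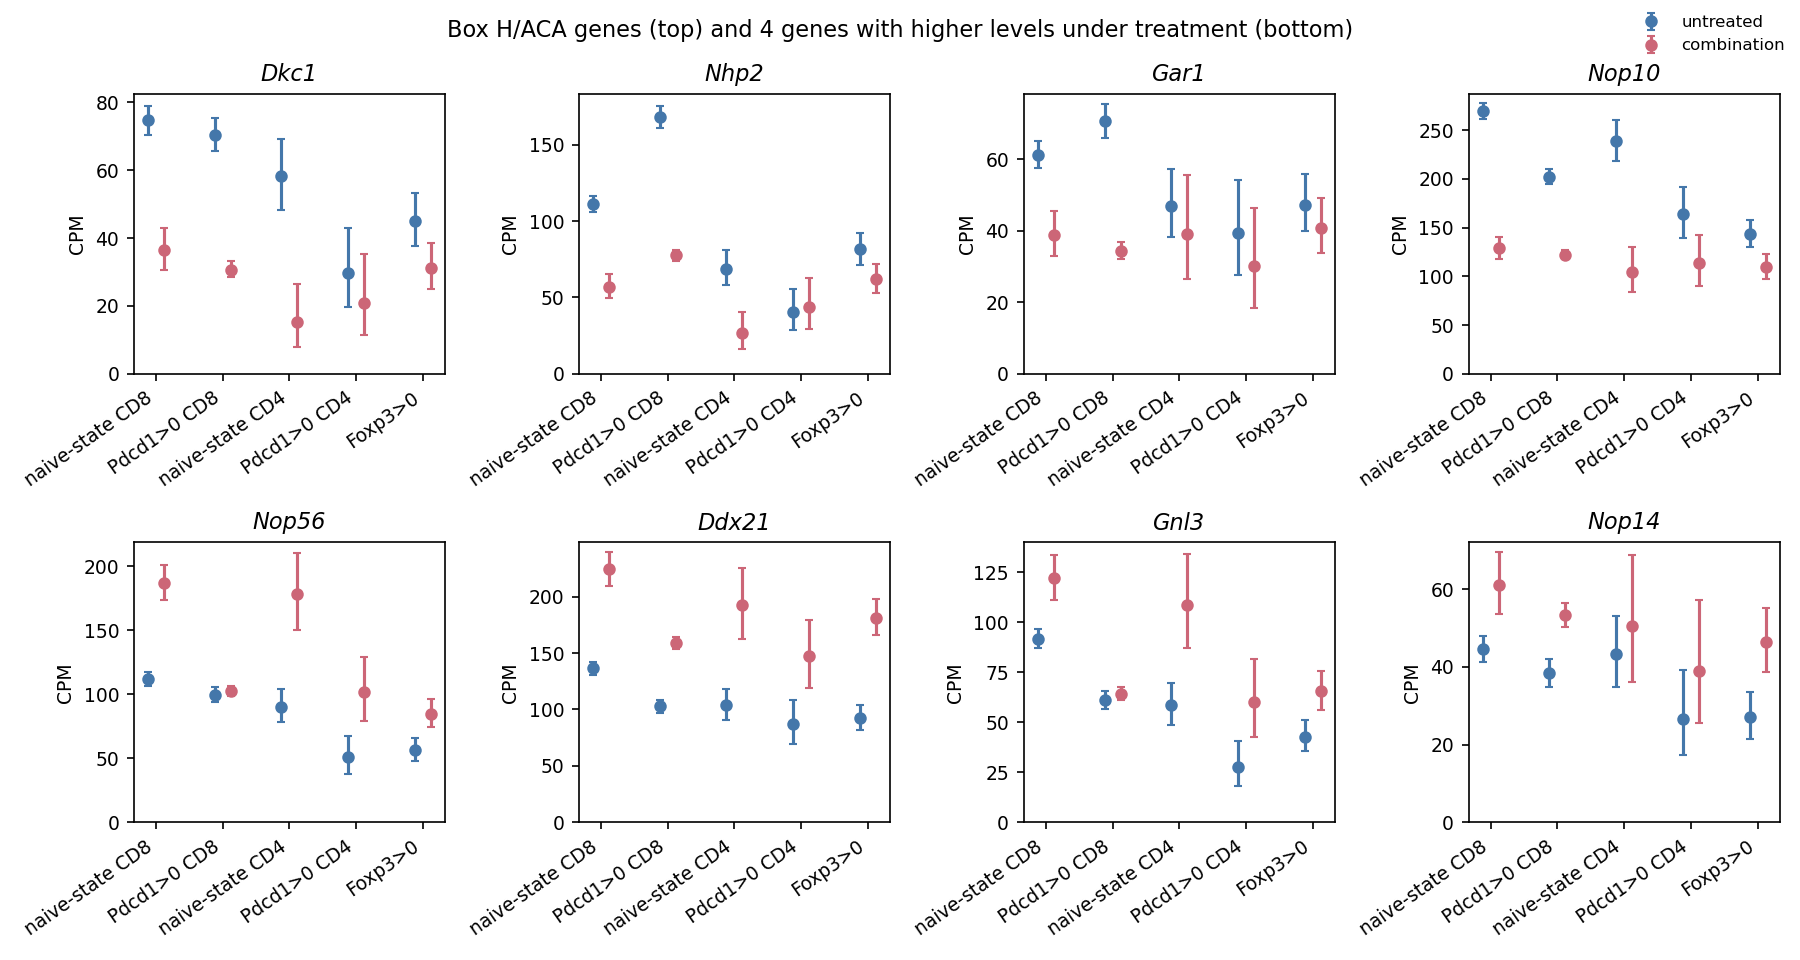
Level (CPM, vertical axes, each starting at 0) of the 4 box H/ACA genes (top) and of 4 genes that were higher under the combination (bottom) in 5 gates, untreated in blue and combination in red; bars are exact Poisson 95% intervals and each point is 1 library. The top genes have lower red points in both CD8 gates, such as Dkc1 at 74.6 and 36.4 CPM, and the bottom ones higher red points in naive-state CD8 cells, such as Ddx21 at 136 and 224 CPM.

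Since these 4 genes were lower together in CD8 cells, the last 120 bases before each annotated start are shown, from RefSeq promoters on build GRCm38.p6. Capitals mark CCGGAA or its reverse complement TTCCGG, the core of many ETS factor sites. Dkc1 lies at chrX:75095734-75095853 (plus strand), Nhp2 at chr11:51619653-51619772 (plus), Gar1 at chr3:129831397-129831516 (minus) and Nop10 at chr2:112261806-112261925 (plus).
Dkc1: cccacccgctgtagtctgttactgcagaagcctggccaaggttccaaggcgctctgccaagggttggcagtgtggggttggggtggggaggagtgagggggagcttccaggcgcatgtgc
Nhp2: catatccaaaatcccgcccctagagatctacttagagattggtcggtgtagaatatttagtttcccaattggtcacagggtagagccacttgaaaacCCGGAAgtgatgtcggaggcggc
Gar1: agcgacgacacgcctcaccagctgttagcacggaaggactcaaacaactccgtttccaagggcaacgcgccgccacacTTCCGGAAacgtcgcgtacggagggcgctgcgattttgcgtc
Nop10: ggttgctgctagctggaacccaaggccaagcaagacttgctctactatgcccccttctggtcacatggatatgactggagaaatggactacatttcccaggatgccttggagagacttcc
Gar1 holds both forms as 1 overlapping palindrome, Nhp2 holds 1 copy, and the Dkc1 and Nop10 windows hold none. Neither CACGTG, the E-box that Myc and Max bind best, nor its variant CACGCG, which reads CGCGTG on the other strand, is in the 250 bases before the start of these 4 genes.

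Promoters of 29 of the 36 members were in the table. Read on both strands over those 250 bases, CACGTG was in 2 of the 29 (6.90%), against 6.86% of 27025 genes with a window of the same length. CACGCG or CGCGTG was in 5 (17.2% against 8.65%), and CCGGAA or TTCCGG in 7 (24.1% against 13.6%). The 27025 genes are all those with a promoter entry, expressed in these cells or not. The members were not compared with expressed genes alone. The 2 members with an E-box were Nop2, at chr6:125131763-125131882 (plus strand), and Utp14b, at chr1:78658320-78658439 (plus strand). They are shown because they carry the letters that Myc and Max bind best, with capitals for the 3 motifs.
Nop2: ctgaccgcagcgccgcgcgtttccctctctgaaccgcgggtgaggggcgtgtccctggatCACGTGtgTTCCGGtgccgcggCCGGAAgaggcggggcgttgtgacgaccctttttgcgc
Utp14b: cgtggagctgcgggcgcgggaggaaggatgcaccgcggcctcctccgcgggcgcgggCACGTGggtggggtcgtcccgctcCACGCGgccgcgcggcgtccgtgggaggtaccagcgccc
Nop2, a methyltransferase of large-subunit RNA, was at 15.7 and 18.7 CPM in naive-state CD8 cells, with an interval across 1, and at 16.5 and 12.8 CPM in Pdcd1>0 CD8 cells, 1.29-fold lower (interval 1.07 to 1.55). These matches describe letters and do not show binding.

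Of the 3 genes of the box C/D snoRNP, the sister particle that adds methyl groups to ribosomal RNA, 0 were lower and 1 higher in naive-state CD8 cells, and 1 lower and 0 higher in Pdcd1>0 CD8 cells. Its enzyme gene Fbl (fibrillarin) was at 186 and 145 CPM in naive-state CD8 cells, 1.28-fold lower (interval 1.17 to 1.40), and at 163 and 105 CPM in Pdcd1>0 CD8 cells, 1.55-fold lower (interval 1.46 to 1.65). Nop56, a scaffold protein of the same particle, was on the other side, at 112 and 187 CPM in naive-state CD8 cells, 1.67-fold higher (interval 1.53 to 1.82). It was also higher in naive-state CD4 cells (90.3 and 178 CPM), Pdcd1>0 CD4 cells (51.1 and 102 CPM) and Foxp3>0 cells (56.4 and 85.0 CPM). It was level in Pdcd1>0 CD8 cells, at 99.7 and 103 CPM.

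Nop58, the partner of Nop56, was at 100.2 and 97.1 CPM in naive-state CD8 cells and at 108 and 83.3 CPM in Pdcd1>0 CD8 cells, 1.29-fold lower (interval 1.20 to 1.39). In non-cycling Pdcd1>0 CD8 cells Nop58 was at 77.0 and 81.4 CPM, with an interval across 1. In the annotation the span of Nop56 holds 5 snoRNA genes and that of Nop58 holds 4. The 3′ UMIs do not separate host transcript forms.

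The general nucleolar factors also split. Npm1 (nucleophosmin) and Ncl (nucleolin) are abundant nucleolar proteins that bind ribosomal RNA. Npm1 was at 1594 and 1573 CPM in naive-state CD8 cells, level within 1.01-fold, and at 1526 and 1110 CPM in Pdcd1>0 CD8 cells, 1.38-fold lower (interval 1.35 to 1.40). Ncl was at 471 and 675 CPM in naive-state CD8 cells, 1.43-fold higher (interval 1.37 to 1.498), and at 650 and 562 CPM in Pdcd1>0 CD8 cells, 1.16-fold lower (interval 1.12 to 1.19). Nolc1, a chaperone of snoRNPs, showed the same crossing, at 57.3 and 78.6 CPM and at 76.0 and 50.5 CPM. Ncl and Nolc1 were the only 2 members with intervals above 1 in naive-state and below 1 in Pdcd1>0 CD8 cells, and 0 showed the reverse. The share of all genes that cross in this way was not counted. Against genes of like transcript length, described further on, the log2 ratios of Ncl were -0.15 and -1.03, both below 0. Those of Nolc1 were 0.32 and -0.90. Among non-cycling Pdcd1>0 CD8 cells, Ncl was on the higher side, at 445 and 544 CPM, and Nolc1 was at 47.2 and 47.1 CPM, with an interval across 1.

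Ddx21, an RNA helicase that links RNA polymerase I and II transcription, was higher in all 5 gates with intervals clear of 1. It was at 136 and 224 CPM in naive-state CD8 cells, 1.65-fold higher (interval 1.52 to 1.78), at 103 and 159 CPM in Pdcd1>0 CD8 cells, 1.54-fold higher (interval 1.45 to 1.65), and at 92.2 and 181 CPM in Foxp3>0 cells, 1.96-fold higher (interval 1.69 to 2.29). Mybbp1a, a nucleolar protein named for binding Myb, was at 51.4 and 57.0 CPM in naive-state CD8 cells, and at 51.2 and 29.9 CPM in Pdcd1>0 CD8 cells, 1.71-fold lower (interval 1.53 to 1.91). Tcof1 (treacle), which supports RNA polymerase I transcription, was under 1.5-fold in both, at 88.2 and 70.5 CPM and at 73.7 and 54.4 CPM.

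The RNA polymerase I subunits themselves were not lower. Polr1a, the largest subunit, was at 16.4 and 22.9 CPM in naive-state CD8 cells, 1.39-fold higher (interval 1.08 to 1.78), and at 13.4 and 21.3 CPM in Pdcd1>0 CD8 cells, 1.58-fold higher (interval 1.32 to 1.91). Polr1b, the second largest, was at 6.38 and 9.63 CPM, 1.51-fold higher (interval 1.01 to 2.22), and at 6.13 and 5.20 CPM, where the interval covered 1. The direction of Polr1a turned in both gates when ratios were set against genes of like transcript length, as described further on.

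Of 8 small-subunit factors, 7 met the minimum in Pdcd1>0 CD8 cells (Utp14b did not), and 4 of these 7 were lower. They were Rrp9 (28.1 and 17.9 CPM), a protein of the U3 snoRNP, Rrp12 (6.81 and 4.27 CPM), an export factor, and Wdr43 (64.1 and 39.5 CPM) and Wdr75 (18.5 and 10.5 CPM), both of the complex that couples transcription of the precursor to its processing. Only Wdr75 of these passed 1.5-fold in naive-state CD8 cells, at 18.8 and 10.9 CPM, 1.72-fold lower (interval 1.24 to 2.44). Wdr43 was 1.44-fold lower there (interval 1.22 to 1.70), while Rrp9 was at 34.4 and 32.01 CPM and Rrp12 at 7.71 and 10.9 CPM, both with intervals across 1.

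The other 4 small-subunit genes were on the higher side in naive-state CD8 cells. Nop14, a scaffold of the small-subunit processome, was at 44.5 and 61.2 CPM, 1.37-fold higher (interval 1.18 to 1.60), and 1.39-fold higher (interval 1.25 to 1.55) in Pdcd1>0 CD8 cells. Utp20, a very large component of that complex, was at 9.48 and 19.3 CPM, 2.03-fold higher (interval 1.52 to 2.70), and at 7.39 and 9.43 CPM in Pdcd1>0 CD8 cells, with an interval across 1. Bysl, an assembly factor of late small-subunit precursors, was at 17.3 and 31.7 CPM in naive-state CD8 cells, 1.83-fold higher (interval 1.47 to 2.28), and at 8.38 and 35.4 CPM in naive-state CD4 cells, 4.23-fold higher (interval 2.26 to 8.11). Bysl was level in Pdcd1>0 CD8 cells, at 21.1 and 22.8 CPM.

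Utp14b had the highest ratio of all members and is the least certain. It was at 3.67 and 32.01 CPM in naive-state CD8 cells, 8.73-fold higher (interval 6.34 to 12.1), and at 4.19 and 51.8 CPM in naive-state CD4 cells, 12.4-fold higher (interval 5.93 to 29.0). Utp14b lies within Acsl3, a gene of fatty acid activation, on the same strand. Acsl3 itself was at 3.22 and 28.9 CPM, 8.96-fold higher (interval 6.38 to 12.7), in naive-state CD8 cells, so reads of the 2 genes may not be told apart. Utp14a, the widely expressed copy at another locus, was at 51.9 and 41.1 CPM there, 1.26-fold lower (interval 1.06 to 1.51). Without Utp14b the median of the ribosome biogenesis members in naive-state CD8 cells was -0.03, against -0.02 with it.

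Among 10 large-subunit factors, 4 were lower and 0 higher in Pdcd1>0 CD8 cells. Nop16, a factor of early large-subunit precursors, was at 40.4 and 19.8 CPM there, 2.04-fold lower (interval 1.79 to 2.33), but at 26.0 and 26.0 CPM in naive-state CD8 cells. Rrp1b was at 21.5 and 10.1 CPM, 2.12-fold lower (interval 1.77 to 2.55), and at 23.6 and 11.97 CPM in naive-state CD8 cells, 1.97-fold lower (interval 1.45 to 2.74), so it was lower in both. The trimer of Pes1, Bop1 and Wdr12, which is needed to process the RNAs of the large subunit, was at most 1.32-fold lower in naive-state CD8 cells. In Pdcd1>0 CD8 cells Pes1 was at 36.6 and 23.7 CPM, Wdr12 at 23.3 and 13.1 CPM, and Bop1 at 34.5 and 26.8 CPM, which is 1.55-fold, 1.78-fold and 1.29-fold lower.

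Gnl3 (nucleostemin), a nucleolar GTPase of stem and dividing cells, was on the higher side. It was at 91.8 and 122 CPM in naive-state CD8 cells, 1.33-fold higher (interval 1.20 to 1.48), at 58.6 and 109 CPM in naive-state CD4 cells, 1.85-fold higher (interval 1.39 to 2.46), and level in Pdcd1>0 CD8 cells, at 61.1 and 64.3 CPM. The remaining large-subunit factors were within 1.5-fold in both CD8 gates. Ppan was at 35.1 and 37.7 CPM in naive-state CD8 cells and 30.3 and 29.4 CPM in Pdcd1>0 CD8 cells. Rrs1 was at 30.8 and 28.4 CPM, and 29.4 and 25.6 CPM, and Noc2l at 41.6 and 39.8 CPM, and 52.4 and 43.9 CPM.

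Because cycling cells are fewer in the combination library, the Pdcd1>0 CD8 gate was also split by the mitotic genes. The cycling part held 393 and 343 cells with median depths of 16406 and 11462 UMIs, the rest 504 and 2564 cells with 8221 and 6652 UMIs. Before droplets with other cell types' transcripts were left out, the cycling part held 706 and 405 cells and the rest 680 and 2984. The share left out was thus larger in the untreated library. In cycling cells 14 of 35 members were lower and 1 (Mxi1) higher, against 15.7% and 25.8% of all genes, and the median log2 ratio was -0.48. In non-cycling cells 8 of 34 were lower and 5 higher, against 16% and 29.3%, with a median of -0.06. The summed level of the 33 biogenesis members was 4454 and 3142 CPM in cycling cells, and 3014 and 2944 CPM in non-cycling cells. All genes had median log2 ratios of 0.08 in cycling and 0.13 in non-cycling cells. The list as a whole was therefore lower within cycling cells. In non-cycling cells its summed level was nearly even, while its median lay under that of all genes. The difference between these strata was not tested.

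All 4 H/ACA genes were lower in both strata. Dkc1 was at 83.1 and 42.3 CPM in cycling cells, 1.97-fold lower (interval 1.66 to 2.33), and at 49.0 and 28.0 CPM in non-cycling cells, 1.75-fold lower (interval 1.49 to 2.05). Nhp2 was at 204 and 108 CPM, and at 107 and 70.5 CPM. Nop16 and Rrp1b were lower in both strata as well, while Npm1, Rrp9, Pes1, Wdr12, Wdr43, Wdr75 and Mybbp1a passed 1.5-fold in cycling but not in non-cycling cells. Rrp12 passed it in non-cycling (6.49 and 3.90 CPM) but not in cycling cells. Npm1 was at 1707 and 1120 CPM in cycling cells, 1.52-fold lower (interval 1.47 to 1.58), and at 1226 and 1107 CPM in non-cycling cells. Polr1a, Nop14, Utp20 and Ddx21 passed 1.5-fold upward in non-cycling but not in cycling cells, with Polr1a at 9.63 and 22.3 CPM and Ddx21 at 85.7 and 163 CPM in non-cycling cells.

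**Figure D4:**
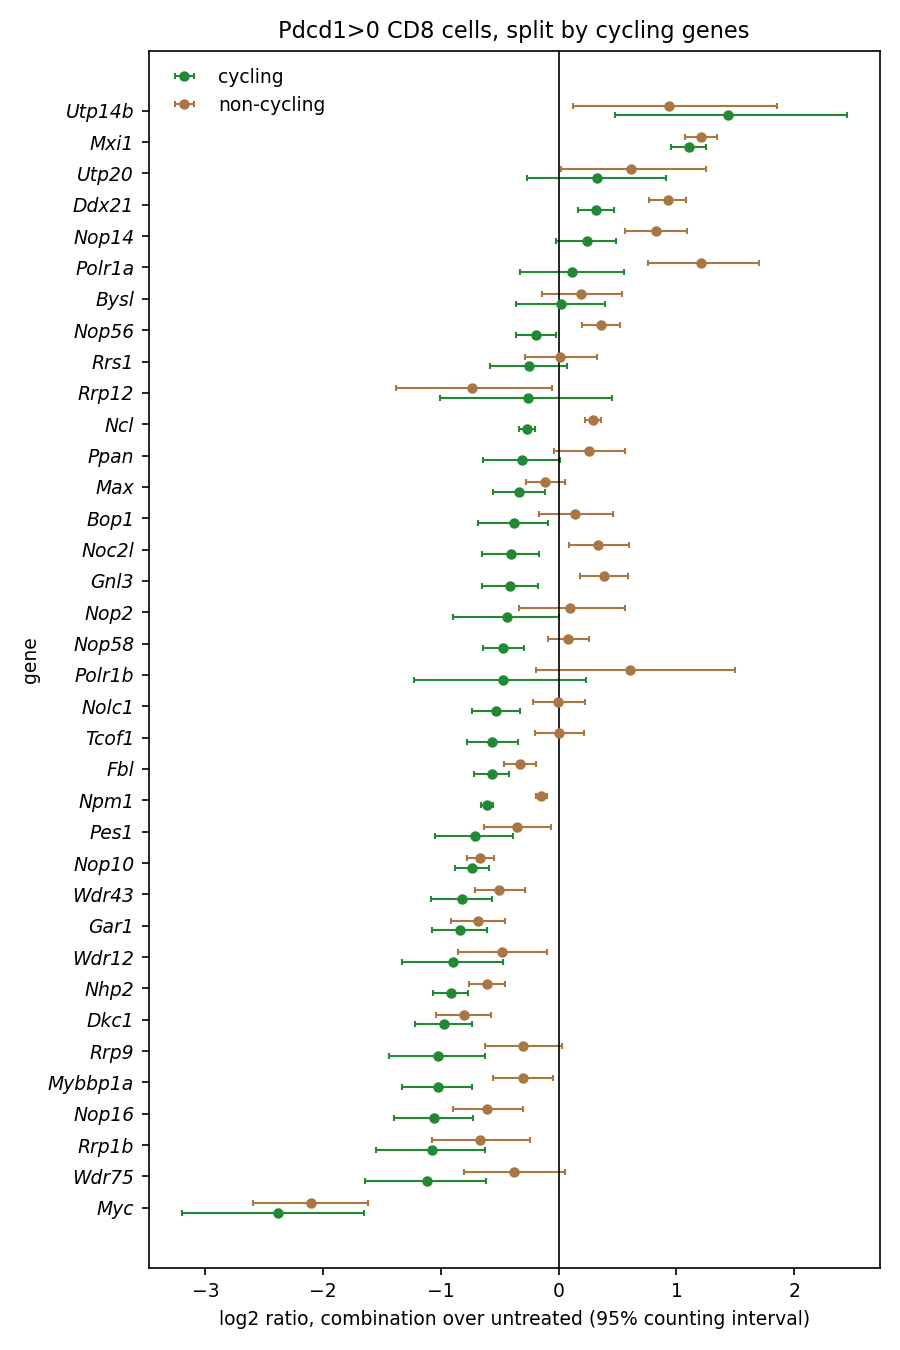
Log2 ratio of the combination over the untreated level (horizontal axis) for the 36 genes (vertical axis, ordered by the cycling value) in cycling (green) and non-cycling (brown) Pdcd1>0 CD8 cells; bars are 95% counting intervals of 1 library per group. Myc and the 4 box H/ACA genes lie left of 0 in both strata, and Ncl, Noc2l and Gnl3 lie left of 0 in cycling and right of 0 in non-cycling cells.

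Cells of the same library with and without a Myc UMI were set side by side for the 33 biogenesis members. A cell with a UMI tends to be deeper, and free RNA can give one, so this is a description. The share of all genes that are higher in cells with a Myc UMI was not counted, so the counts below have no background. In untreated naive-state CD8 cells the members summed to 4255 CPM in the 531 cells with a Myc UMI and 3768 CPM in the 1969 without. Median depths of these cells were 6848 and 5591 UMIs, and 28 of 33 members were higher in the former. In untreated non-cycling Pdcd1>0 CD8 cells, where median depths were 8242 and 8221 UMIs, the sums were 3870 and 2904 CPM, and 31 of 33 were higher. In the combination library the same split gave 4279 and 3972 CPM in naive-state CD8 cells, and 3182 and 2937 CPM in non-cycling Pdcd1>0 CD8 cells, with 23 and 21 of 33 higher. In cycling Pdcd1>0 CD8 cells the sums were 5271 and 4190 CPM untreated, at median depths of 20829 and 15638 UMIs, with 32 of 33 higher. Under the combination they were 3246 and 3138 CPM, with 18 of 33 higher, and only 12 cells had a Myc UMI.

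Outside the members, 90 other ribosome biogenesis genes were read as a list. In naive-state CD8 cells 17 of the 88 that met the minimum were lower and 7 higher, with a median log2 ratio of -0.14. In Pdcd1>0 CD8 cells 22 of 88 were lower and 8 higher, with a median of -0.22, which in cycling cells was -0.32 and in non-cycling cells 0.01. The counts of lower genes are close to the background shares given above, and those of higher genes are below them. Rpf2, which brings the 5S particle to the large subunit, was at 30.3 and 9.89 CPM in naive-state CD8 cells and 32.7 and 9.25 CPM in Pdcd1>0 CD8 cells, 3.53-fold lower (interval 2.98 to 4.20). Utp11, a small-subunit factor, was at 51.4 and 18.7 CPM in naive-state CD8 cells, and Nle1, an adaptor of large-subunit maturation, at 14.96 and 4.40 CPM in Pdcd1>0 CD8 cells. On the other side stood Mdn1, the giant ATPase that remodels large-subunit precursors, at 25.3 and 56.7 CPM and at 16.6 and 44.2 CPM. Taf1d, of the promoter factor of RNA polymerase I, was at 162 and 277 CPM in naive-state CD8 cells, and Urb2 at 3.36 and 9.56 CPM in Pdcd1>0 CD8 cells.

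Of 31 Myc targets outside the nucleolus, 12 were lower and 8 higher in naive-state CD8 cells, and 14 of 30 lower and 3 higher in Pdcd1>0 CD8 cells, with medians of -0.01 and -0.48. Over all genes tested, 22.6% were lower and 27.6% higher in the first gate, and 20.5% and 28.8% in the second. Srm (spermidine synthase) was at 55.7 and 20.8 CPM and Tfap4, a transcription factor, at 15.9 and 5.20 CPM in naive-state CD8 cells. In the same cells Odc1, the enzyme that starts polyamine synthesis, was at 95.3 and 333 CPM, 3.49-fold higher (interval 3.24 to 3.76), and the glycolytic gene Hk2 at 5.18 and 22.1 CPM. In Pdcd1>0 CD8 cells Shmt2, a mitochondrial enzyme of one-carbon metabolism, was at 51.7 and 15.7 CPM and the translation factor gene Eif5a at 1147 and 416 CPM. Mat2a, which makes the methyl donor of the cell, was at 91.9 and 251 CPM, and Slc3a2, an amino acid transporter chain, at 318 and 614 CPM. The 80 ribosomal protein genes had medians between -0.26 and -0.07 over the 5 gates.

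Transcript length moved with the ratios of all genes and so with the members. Over the genes that have a coding transcript in the annotation, Spearman's rho between the log2 ratio and the longest coding transcript was 0.50 in naive-state CD8 cells, 0.52 in Pdcd1>0 CD8 cells, 0.42 and 0.37 in the CD4 gates and 0.47 in Foxp3>0 cells, a description across genes of the same 2 libraries. Of 10 equal groups of genes by length, the one with the shortest transcripts had a median log2 ratio of -0.53 in naive-state CD8 cells, and the one with the longest 0.67. Nop10, Nhp2 and Gar1 are short (1109, 1042 and 1271 bases), and Polr1a and Utp20 are long (9216 and 8821 bases). The part of length, or of whatever differs with it, in the members' ratios was not tested.

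Read against the median of genes of like length, the log2 ratios of the H/ACA genes in naive-state CD8 cells were -0.95 for Dkc1, -0.54 for Nop10, -0.43 for Nhp2 and -0.14 for Gar1. In Pdcd1>0 CD8 cells they were -1.16, -0.28, -0.66 and -0.56. Myc stood at -0.95 and -2.15, and Rrp1b, a long transcript, at -1.40 and -1.56. Nop56 stood at 1.09 and 0.33, and Ddx21 at 0.30 and 0.15. The direction of the 8 genes named here was the same on this scale, with smaller sizes for the short H/ACA genes and for Ddx21 and larger ones for Rrp1b and Nop56. On it 8 other members turned in naive-state CD8 cells: Fbl came to 0.18, Npm1 to 0.50, Rrp9 to 0.41, Rrs1 to 0.23, Noc2l to 0.02, Ncl to -0.15, Polr1a to -0.19 and Mybbp1a to -0.27. In Pdcd1>0 CD8 cells the members that turned were Npm1 (0.01), Max (0.23), Rrs1 (0.09), Ppan (0.43), Utp20 (-0.47), Bysl (-0.19) and Polr1a (-0.16).

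**Figure D5:**
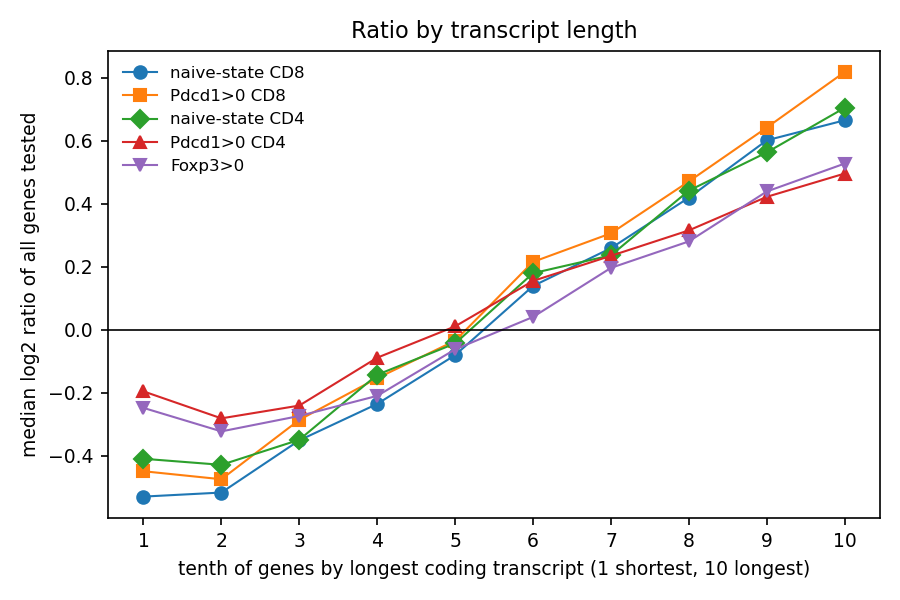
Median log2 ratio of the combination over the untreated level of all genes tested (vertical axis) in 10 groups of genes ordered by the length of their longest coding transcript (horizontal axis, group 1 shortest), 1 line per gate. All 5 lines climb from below 0 to above 0, from -0.53 to 0.67 in naive-state CD8 cells.

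Of the 27 marker genes of other cell types, 25 are in the table. In the gated cells they summed to 53.4 and 48.7 CPM in naive-state CD8 cells and 39.3 and 35.3 CPM in Pdcd1>0 CD8 cells. Over the 5 gates the sums ranged from 39.3 to 68.1 CPM untreated and from 33.0 to 55.6 CPM under the combination, and between 4 and 16 of the 25 were at 0 in a gate of a library. The macrophage gene Lyz2 was at 6.05 to 17.2 CPM untreated and 0 to 3.79 CPM under the combination, and the B cell gene Cd79a at 0 to 0.465 and 1.07 to 4.94 CPM. Their part in the members' ratios was not tested.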

How the data were processed

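The deposited table holds natural log values per gene and cell: per the file's values, the authors divided each UMI count by the cell's total, multiplied by 10000 and took the natural log of that plus 1. Cell Ranger and Seurat are named in the submitters' processing notes without versions, and other settings are not given in the sources used here. These notes name build GRCh38, although the symbols are of mouse genes, so no coordinate was taken from the files. Of 38204229 nonzero values, 100.0% gave whole UMIs within 0.01. Cells were assigned to libraries by the number at the end of their names, which matches the sample numbers and cell counts in the labels. The libraries are unreplicated, so no spread between mice is known.

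Cells with at most 10% mitochondrial UMIs were kept. No doublet caller was run. Droplets with 2 or more detected marker genes of other cell types were left out, and depth per gate is given with the cells. UMIs were summed per gate and library (Python 3.11.15, numpy 2.4.6, scipy 1.17.1). The computation of the intervals was checked on simulated Poisson counts. Such counts hold no spread between cells or mice, so the check says nothing of that spread. Of the members, 13 overlap a coding gene on the opposite strand in the annotation (GENCODE, mouse), among them Dkc1, Nhp2, Nop56, Bysl and Gnl3, and whether counting used strand is not given in the sources used here. Promoters come from RefSeq, and 7 members without an entry there are Myc, Npm1, Fbl, Rrs1, Rrp12, Bop1 and Tcof1.

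Named were all members, the 8 further Myc and Max partners, and, from the lists of other biogenesis genes and Myc targets, the 2 highest and 2 lowest in each CD8 gate by the interval bound nearest 1, among genes with at least 50 UMIs in a library. Acsl3 and Utp14a were named after their values were seen. The members, lists and gates were chosen with earlier results of these data known. The alternatives changed the mitochondrial limit, the droplets left out, the deepest cells, the gates, cycling cells, the scaling, the depth and the minimum level. The full list of genes behind the naive-state gate is not reported here.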

Additional observations from a re-analysis of the deposited data

Results flagged for a closer look

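In 5 genes the counting intervals of the ratio lay above 1 in a gate and below 1 in another. How many of all genes do so was not counted. Each value is a log2 ratio of the combination over the untreated library, from 1 library per group, and none of these differences between gates was tested. Ncl was 0.72 in naive-state CD4 cells and -0.21 in Pdcd1>0 CD8 cells. Nolc1 was 0.46 in naive-state CD8 cells and -0.59 in Pdcd1>0 CD8 cells. Npm1 was 0.19 in naive-state CD4 cells and -0.46 in Pdcd1>0 CD8 cells. Nop58 was 0.32 in Foxp3>0 cells and -0.37 in Pdcd1>0 CD8 cells. Max was 0.49 in naive-state CD8 cells and -0.29 in Foxp3>0 cells. Against genes of like transcript length, in the same pairs of gates, Ncl was 0.02 and -1.03 and Nolc1 0.32 and -0.90. On that scale Npm1 was 0.62 and 0.01, Nop58 -0.21 and -1.19, and Max 0.84 and -0.01. Npm1 and Nop58 thus no longer lay on both sides of 0, and the part of length was not tested. In non-cycling Pdcd1>0 CD8 cells the values were 0.29 for Ncl, -0.003 for Nolc1, -0.15 for Npm1 and 0.08 for Nop58. Cycling cells made up 43.8% of untreated and 11.8% of combination cells in that gate, and their part in these differences was not tested.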

How the results depend on the processing

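Over all alternatives, 1 value past 1.5-fold changed its direction, 22 others moved beyond their counting interval or, for counts, by more than 1.5 times, and 172 did neither. Medians near 0 also changed sign within their intervals: that of naive-state CD8 cells reached 0.13 (against -0.01), of naive-state CD4 cells -0.31 (0.01), of Pdcd1>0 CD4 cells -0.27 (0.06) and of Foxp3>0 cells -0.18 (0.04). The log2 ratio of Myc in Pdcd1>0 CD4 cells, 1.72 from 3 and 7 UMIs, was -0.51 with droplets of other cell types' transcripts kept, and in Foxp3>0 cells it was 0.37 in naive-state cells alone, against -0.41. The Myc ratios of both CD8 gates moved under none of the alternatives run. The members' median in Pdcd1>0 CD8 cells was -0.06 without cycling cells, -0.21 with the mean of each cell's CPM and -0.16 after thinning to 2000 UMIs, against -0.44. The members at least 1.5-fold lower in this gate were 10 without the 5% deepest cells, 8 without cycling cells, 8 with the mean of each cell's CPM and 9 after thinning, against 16. In naive-state CD4 cells they were 5 with a minimum of 20 CPM and 13 against genes of like transcript length, in place of 8. In Pdcd1>0 CD4 cells they were 8 with the droplets kept, 8 after thinning and 1 with a minimum of 20 CPM, in place of 4. In Foxp3>0 cells, in place of 0, they were 1 with the droplets kept, with a stricter gate, with the mean of each cell's CPM, with Pdcd1 UMIs required or against genes of like length, 3 without cycling cells or after thinning, 4 without the 5% deepest cells and 8 in naive-state cells alone. A higher minimum tests fewer genes, and the cause of the other changes was not tested. The alternatives on transcript length, Cd44 and cycling cells alone were chosen after the data were seen. No paired analysis was possible because each group has 1 library. The CD4 gates hold fewer cells and UMIs than the CD8 gates, which widens their counting intervals.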
